A study of Mus musculus with 3 samples.

Results

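The nuclear-encoded subunits of the mitochondrial respiratory chain and of ATP synthase were followed in Th1 cells, CD4 T cells that secrete interferon gamma. They were chosen by name: protein-coding genes whose symbol starts with Ndufa, Ndufb, Ndufc, Ndufs, Ndufv, Uqcr, Cox4 to Cox8 or Atp5, together with Sdha, Sdhb, Sdhc, Sdhd and Cyc1, without the assembly factors that start with Ndufaf. The rule gave 86 genes of the 50600 in the files, 38 in complex I, 4 in complex II, 9 in complex III, 18 in complex IV and 17 in complex V. They lie on 19 chromosomes, with 3 of them on chromosome X. The material was 1 group of 3 RNA-sequencing libraries, replicates 1, 2 and 3, of Th1 cells taken as primary cells from C57BL/6NJ mice. No treatment or genetic change is given in the labels, the age is unknown and the file headers place the sorted cells at 72 hours. With 1 group there was no contrast between conditions, so the results are levels and differences between genes and between libraries.

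Complex I takes electrons from NADH and complex II takes them from succinate, complex III passes them from ubiquinol to cytochrome c, and complex IV hands them to oxygen. Complexes I, III and IV pump protons across the inner membrane, and complex V, the ATP synthase, makes ATP from the proton gradient. All but complex II also hold subunits encoded by the mitochondrial genome. In T cells, mitochondrial respiration is known to support activation and the change from a resting to a dividing cell.

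The 3 libraries held 4482916, 266790 and 3733531 counts in replicates 1, 2 and 3. The 86 genes together took 35526, 1905 and 20193 of them. That was 0.792% of the counts of replicate 1 (95% Wilson interval 0.784% to 0.801%), 0.714% of replicate 2 (0.683% to 0.747%) and 0.541% of replicate 3 (0.533% to 0.548%). These intervals hold counting error alone, because PCR copies are not separate molecules. The median count per gene was 268.5, 16 and 142.5, and a count of 16 has an exact Poisson interval of 9.15 to 26.0. In replicate 2, 11 of the 86 genes had 0 counts and 29 had under 10, beside 4 and 8 in replicate 1 and 3 and 8 in replicate 3. A value of replicate 2 therefore rests on few fragments. The labels give 1 donor record for the 3 libraries, so the spread between them may be technical.

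Levels are given as TPM, a share of the library scaled by the length of a gene's exons, as mean ± SD over 3 libraries. Each level is that of the strand that was counted. Genes with an exon facing an exon of another gene on the other strand held 51.7%, 55.1% and 66.5% of all counts in replicates 1, 2 and 3. The counted strand may be the one opposite to the RNA, and reads of a gene and of the gene that faces it cannot be told apart here. Such genes are called overlapped below, and 24 of the 86 were overlapped (27.9%, beside 29.7% of the coding genes with a count). The T-cell list used to check the cell type had a mean of at least 1 TPM in 12 of 12 genes, with Cd4 at 174 ± 53.5 TPM. The lowest was Cd3e (overlapped) at 18.3 ± 16.2 TPM from 292, 1 and 157 counts. The Th1 list did so in 8 of 8, with Ifng, which encodes interferon gamma, at 604 ± 252 TPM. The lowest there was Cxcr3 at 1.30 ± 1.16 TPM from 8, 0 and 6 counts. Of the 6 B-cell markers 2 reached 1 TPM, Cd79a at 8.23 ± 4.00 and Cd22 (overlapped) at 3.53 ± 1.07 TPM, and 3 had 0 counts, Ms4a1 and Pax5 among them. Their summed level ranged from 7.75 TPM in replicate 1 to 15.2 TPM in replicate 2. Of the 7 macrophage markers 2 reached 1 TPM, Csf1r (overlapped) at 85.4, 112 and 135 TPM in replicates 1, 2 and 3 and Cd68 at 12.7 ± 5.15 TPM, and Lyz2, Adgre1 and Mertk had 0 counts, with a summed level of 96.9, 131 and 144 TPM. The part of such cells in the results was not tested.

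Most of the respiratory chain genes were measured above the median of the coding genes. A mean of at least 1 TPM was reached by 81 of 86, beside 47.8% of the 21764 coding genes in the files. At least 10 TPM was reached by 76 and at least 100 TPM by 33, and the shares of all coding genes at these minimums were not computed. The median of the 86 means was 73.4 TPM, beside 7.28 TPM over the 13628 coding genes with at least 1 count, of which 90.8% lay below 73.4 TPM. Within single libraries the median was 94.7, 76.2 and 53.4 TPM in replicates 1, 2 and 3. Among the 1000 coding genes of highest mean TPM, out of 21764, 36 were respiratory chain genes, which is 41.9% of the 86.

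**Figure D1:**
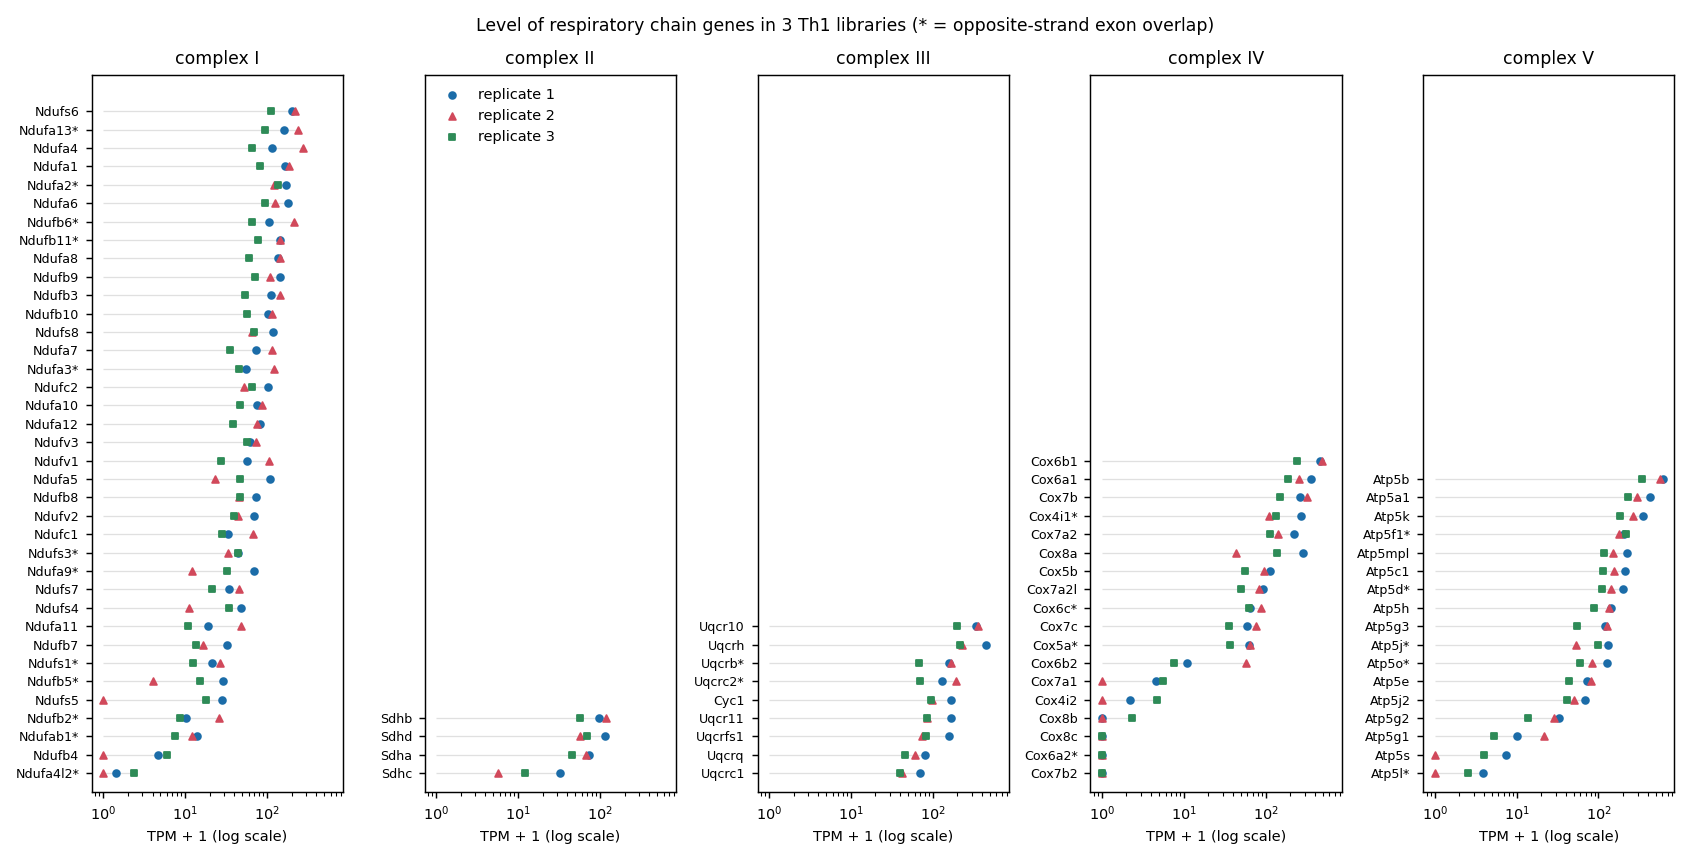
TPM + 1 on a log axis for 85 of the genes, 1 panel per complex, with a point for each of the 3 libraries and genes ordered by mean within a complex. Of the 86 genes, 76 have a mean of at least 10 TPM, replicate 3 is mostly the lowest of the 3 points, and a tail of genes at or near 0 stands at the foot of complexes I, IV and V.

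The catalytic part of ATP synthase held the highest gene of all. Atp5b, the catalytic beta subunit, had 612, 559 and 337 TPM in replicates 1, 2 and 3 (503 ± 146) from 5426, 306 and 2910 counts, and it was the highest of the 86 in each library. It lies on chromosome 10 from 128083273 to 128090391 (mm10, plus strand) and is not overlapped. Atp5a1, the alpha subunit that alternates with beta in the ring, had 427, 296 and 230 TPM (318 ± 100) and was below Atp5b in 3 of 3 libraries, with a mean log2 ratio of -0.66 ± 0.22 that was -1.46 ± 0.22 with the length of the main transcript. The central stalk subunits were lower, Atp5c1 (gamma) at 159 ± 47.8 TPM, Atp5d (delta, overlapped) at 149 ± 43.8 and Atp5e (epsilon) at 64.5 ± 19.0. The protein complex holds 1 copy of each of these stalk subunits for several copies of alpha and beta. Within the part of ATP synthase outside the membrane the range was thus from 64.5 to 503 TPM. The low end depends on the length used. With the length of the main transcript Atp5e was at 210 TPM, above Atp5c1 (204) and Atp5d (159), and Atp5b was at 869 TPM.

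The peripheral stalk, which holds the catalytic head still against the turning rotor, was led by Atp5f1 (subunit b, overlapped) at 204, 175 and 217 TPM (199 ± 21.3). This was 1 of only 2 of the genes with at least 10 counts in both deep libraries whose TPM was not lower in replicate 3 than in replicate 1. Atp5h had 121 ± 28.8 TPM, Atp5j (overlapped) 93.2 ± 39.2 and Atp5o (overlapped) 88.8 ± 34.1. Among the small membrane subunits, Atp5k had 352, 264 and 181 TPM (266 ± 85.8), Atp5mpl 163 ± 55.0 and Atp5j2 52.2 ± 13.6, while Atp5l (overlapped) had 2.89, 0 and 1.52 TPM from 39, 0 and 20 counts (1.47 ± 1.45). Atp5s, a coupling factor loosely bound to the enzyme, had 20, 0 and 9 counts (3.14 ± 3.22 TPM). A pair of ATP synthase genes that the naming rule does not reach was also high: Usmg5, a membrane subunit, had 276 ± 107 TPM and Atpif1, the inhibitor of the enzyme, 250 ± 144, and both are overlapped.

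The 3 Atp5g genes encode the same mature c-ring subunit, the rotor in the membrane. Atp5g3 had 119, 128 and 53.4 TPM (100 ± 40.7), Atp5g2 had 31.7, 27.7 and 12.9 (24.1 ± 9.90) and Atp5g1 had 9.05, 20.5 and 4.30 (11.3 ± 8.32). In TPM the order Atp5g3, Atp5g2, Atp5g1 held in each library. In counts Atp5g2 had 111, 6 and 44 and Atp5g1 had 93, 13 and 43, so Atp5g1 was above Atp5g2 in replicate 2. The TPM order of these 2 thus depends on their exon lengths of 1675 and 4912 bases. Their main transcripts have 731 and 4715 bases. The mean log2 ratio of TPM + 1 was 2.00 ± 0.15 for Atp5g3 over Atp5g2 and 1.17 ± 0.67 for Atp5g2 over Atp5g1, the latter 2.24 ± 0.65 with the length of the main transcript. The level of Atp5g2 is uncertain, since 87.4% of the 50-base stretches of its main transcript also occur in transcripts of other genes.

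In complex IV the ubiquitous nuclear subunits were high. Cox6b1, which joins the monomers of the complex on the outer face, had 465, 492 and 238 TPM (398 ± 140) from 689, 45 and 343 counts, and ranked next after Atp5b in each library. It lies on chromosome 7 from 30616861 to 30626151 on the minus strand. Cox6a1 had 267 ± 86.2 TPM, the X-linked Cox7b 242 ± 87.3, Cox4i1 (overlapped), the large subunit that binds regulatory nucleotides, 171 ± 85.4, Cox7a2 158 ± 57.0 and Cox8a 155 ± 124. The 2 matrix-facing subunits were lower, Cox5b, which binds zinc, at 87.9 ± 29.4 and Cox5a (overlapped) at 53.0 ± 15.2. Cox6c (overlapped) had 70.5 ± 14.2 and Cox7c 56.1 ± 20.1. Cox7a2l, a relative of Cox7a2, had 74.5 ± 22.4 TPM and was below Cox7a2 in 3 of 3 libraries.

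The isoforms of complex IV known from muscle, testis or low oxygen were near the counting floor, apart from Cox6b2. Cox6a2 (overlapped) of heart and skeletal muscle and the testis isoforms Cox7b2 and Cox8c had 0 counts in each library. For a gene of 2000 bases, 3 counts correspond to 0.717, 11.6 and 0.737 TPM in replicates 1, 2 and 3, so a low level in replicate 2 was not detectable at its depth. Cox8b, the muscle isoform of Cox8a, had 0, 0 and 1 counts. Cox4i2, the isoform known from lung and low oxygen, had 2, 0 and 6 counts, and Cox7a1 of muscle had 4, 0 and 5. In complex I, Ndufa4l2 (overlapped), a paralog of Ndufa4 known to rise in low oxygen, had 1, 0 and 3 counts.

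Against these isoforms the common form stood higher in every library. With 3 counts over the group as the floor for a gene at 0, Cox6a1 was at least 265-fold higher than Cox6a2 per length, Cox7b at least 160-fold higher than Cox7b2 and Cox8a at least 140-fold higher than Cox8c. The following intervals hold counting error only and not the spread between libraries. From counts pooled over the libraries, Cox4i1 was 83.6-fold above Cox4i2 (exact binomial interval 42.3 to 194) and Cox7a2 42.1-fold above Cox7a1 (22.1 to 92.5). Ndufa4 was 111-fold above Ndufa4l2 (43.2 to 410). For Cox8a over Cox8b, with 1 count of the second, the ratio was 318 with an interval from 56.8 to 12575. Leaving out 1 library moved some of these ratios by over 1.5 times: the mean log2 ratio of TPM + 1 went from 6.18 to 6.86 for Cox4i1 over Cox4i2 without replicate 3, and from 6.49 to 5.65 for Cox8a over Cox8b and from 6.90 to 6.27 for Cox8a over Cox8c without replicate 1. Without replicate 2 it went to 7.63 for Cox8a over Cox8c. For Cox7a2 over Cox7a1 it went from 5.69 to 4.97 without replicate 2 and 6.37 without replicate 3, and for Ndufa4 over Ndufa4l2 from 6.41 to 5.57 and 7.22. With 3 libraries a two-sided sign-flip permutation test cannot give a p below 0.25, so no p is given for a pair.

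Cox6b2, the testis isoform of Cox6b1, differed from the other isoforms of this kind. It had 23, 8 and 15 counts, or 9.93, 55.9 and 6.65 TPM (24.2 ± 27.5), with replicate 2 the highest. The log2 ratio of TPM + 1 for Cox6b1 over Cox6b2 was 5.42, 3.12 and 4.97 in replicates 1, 2 and 3, with a mean of 4.50 and a mean of 5.19 without replicate 2. Of the testis markers, 2 of 8 reached 1 TPM, 4 had 0 counts, and their summed level was 24.4, 0 and 18.0 TPM in replicates 1, 2 and 3. Tnp2 (8.48 ± 9.22 TPM) and Prm1 (4.83 ± 4.33 TPM), which pack DNA in sperm, made up most of it, and Tnp1, Acrv1, Pgk2 and Dazl were the 4 at 0. Of the heart and skeletal muscle markers, 3 of 12 reached 1 TPM and 8 had 0 counts. Those at 0 were Actc1, Acta1, Myh6, Myh7, Mb, Ryr2, Tnnt2 and Des. The summed level was 18.5, 37.5 and 18.6 TPM in replicates 1, 2 and 3. Tnni3 had 4.17, 37.5 and 1.19 TPM from 18, 10 and 5 counts, all of the sum in replicate 2. Myl2 at 8.39 ± 7.61 TPM and Ckm at 1.88 ± 1.66, both overlapped, also reached 1 TPM. None of the 6 brown fat markers reached 1 TPM, and Ucp1 had 0 counts. The part of such cells in these levels was not tested.

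**Figure D2:**
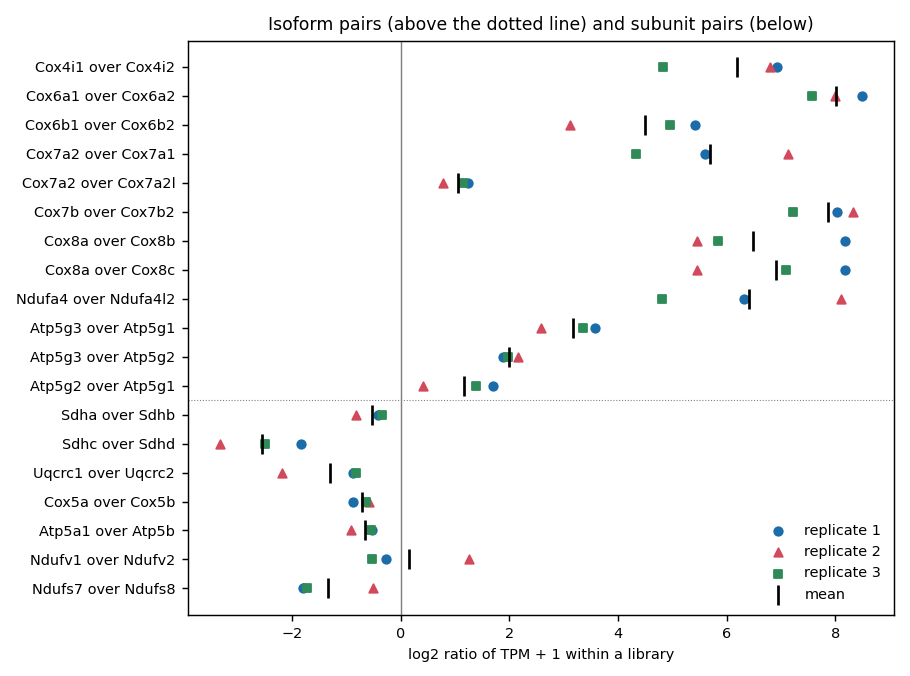
Log2 ratio of TPM + 1 within a library for 12 isoform pairs above the dotted line and 7 pairs of subunits below it, with 1 point per library and the mean as a vertical bar. Each of the 12 isoform pairs lies to the right of 0 in every library, and of the subunit pairs only Ndufv1 over Ndufv2 has points on both sides.

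In complex III no gene was low: the 9 means lay between 49.7 and 298 TPM with a median of 118 TPM. The highest were the small subunits Uqcr10, with 338, 358 and 198 TPM (298 ± 87.4), and Uqcrh, the hinge protein that helps cytochrome c dock, with 440, 225 and 213 TPM (293 ± 128). These 2 did not keep an order, as Uqcr10 was the higher in replicate 2 and Uqcrh in replicates 1 and 3. The subunits that carry electrons were lower, Cyc1, the cytochrome that reduces cytochrome c, at 118 ± 39.5 TPM and Uqcrfs1, the Rieske iron-sulfur protein, at 104 ± 45.1. Uqcrb (overlapped) had 131 ± 55.9 TPM, Uqcr11 111 ± 46.5 and Uqcrq 61.6 ± 17.7. The core proteins that do not carry electrons differed, with Uqcrc2 (overlapped) at 130 ± 60.6 and Uqcrc1 at 49.7 ± 16.7, a mean log2 ratio of -1.30 ± 0.77 for Uqcrc1 over Uqcrc2 with the same sign in 3 of 3 libraries. With the length of the main transcript it was -0.42 ± 0.77, smaller than its SD.

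Complex II, which is also an enzyme of the TCA cycle, was the lowest of the 5 in summed level and has the fewest genes. Its 4 genes had a median of 70.5 TPM, beside 63.7 in complex I, 118 in III, 63.3 in IV and 100 in V. Without its tissue isoforms complex IV had a median of 155 TPM. Sdhb, the iron-sulfur subunit, had 96.3, 118 and 56.8 TPM (90.2 ± 30.8) and Sdha, the flavoprotein that oxidizes succinate, 72.2, 65.8 and 44.4 (60.8 ± 14.5). Of the membrane anchors, Sdhd had 115, 56.6 and 68.6 TPM (80.2 ± 31.1) and Sdhc 31.8, 4.76 and 11.3 (16.0 ± 14.1), from 216, 2 and 75 counts of Sdhc. Sdhc was below Sdhd in 3 of 3 libraries, with a mean log2 ratio of -2.55 ± 0.75, and none of the 4 genes is overlapped. The 13 other enzymes of the TCA cycle on the list used here all reached 10 TPM, with a median of 41.6 TPM.

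In complex I, the largest of the complexes, the 7 core subunits that carry the electrons were lower than many accessory subunits. The core median was 49.6 TPM, and the median of the 30 accessory subunits was 70.8 TPM with a range from 2.91 to 178. Among the core genes were Ndufs8 (83.9 ± 30.2 TPM), Ndufv1 (62.2 ± 39.4), which binds NADH, Ndufv2 (49.6 ± 15.7), Ndufs3 (39.5 ± 6.52, overlapped), Ndufs7 (32.9 ± 12.4) and Ndufs1 (19.3 ± 7.30, overlapped), which holds several of the iron-sulfur clusters. Ndufs7 was below Ndufs8 in 3 of 3 libraries, with a mean log2 ratio of -1.34 ± 0.72 that was -0.49 ± 0.73 with the length of the main transcript. Ndufv1 over Ndufv2 had a mean log2 ratio of 0.16 ± 0.97, with Ndufv1 higher in replicate 2 and Ndufv2 in the others. Without replicate 2 it was -0.40.

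Of the accessory subunits, Ndufs6, which binds zinc, had the highest mean with 201, 221 and 112 TPM (178 ± 58.1), though Ndufa4 and Ndufa13 were above it in replicate 2 and Ndufa2 in replicate 3. With the length of the main transcript Ndufa4 (267 TPM), Ndufb8 (195) and Ndufa7 (185) were above its 154 TPM. Next by mean were Ndufa13, also studied as a cell death regulator, at 163 ± 71.2 TPM (overlapped), Ndufa4 at 151 ± 110, Ndufa1 on chromosome X at 144 ± 54.4 and Ndufa2 at 142 ± 24.5 (overlapped). Ndufa4 is grouped here by its name, although its protein has since been assigned to complex IV. At the low end were Ndufb4 with 9, 0 and 12 counts (2.91 ± 2.61 TPM), Ndufab1, the mitochondrial acyl carrier protein, at 10.2 ± 3.20 TPM (overlapped), Ndufb2 at 13.9 ± 9.43 (overlapped) and Ndufs5 with 49, 0 and 30 counts (14.8 ± 13.8). The highest and the lowest accessory subunit were picked from these same means, so no conclusion is drawn from the gap between them.

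Summed over its genes, complex I took 0.268% ± 0.080 of the TPM of all genes, complex V 0.232% ± 0.061, complex IV 0.176% ± 0.053, complex III 0.130% ± 0.040 and complex II 0.0247% ± 0.0067. The sum of complex I was above that of complex V in 3 of 3 libraries, at 0.309%, 0.319% and 0.177% against 0.293%, 0.231% and 0.171%. The means differed by less than the SD of either. Complexes V, IV, III and II kept their order in each library. Each sum also depends on the number of genes, 38, 17, 18, 9 and 4 in complexes I, V, IV, III and II. The order of complexes I and V turned when the length of 1 main transcript replaced the full exon length, as complex V was then at 0.370% and complex I at 0.311%.

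TPM divides by the exon length in the deposited files, which joins all annotated exons of a gene. The median exon length of the 86 genes was 1423 bases and that of their main transcripts 823.5, and 24 genes had an exon length over 2 times that of the main transcript. Leaving out the 8 isoforms named above, Spearman's rho between mean TPM and exon length was -0.51 over 78 genes. This is a description over genes that share the same 3 libraries, and length is itself part of TPM. The genes with the longest exon lengths were low: Ndufs1 with 8086 bases, Ndufab1 with 6883 (10.2 TPM), Atp5l with 6443 (1.47 TPM) and Ndufb2 with 5628 (13.9 TPM). With the length of the main transcript, the mean of Ndufb7 went from 19.9 to 113 TPM, that of Ndufb8 from 53.9 to 195, that of Cox6c from 70.5 to 267 and that of Atp5l from 1.47 to 13.7. Atp5b stayed the highest with 869 TPM, and Uqcrh moved to the next place with 517 TPM. Cox5a over Cox5b turned from a mean log2 ratio of -0.70 to 0.15.

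**Figure D3:**
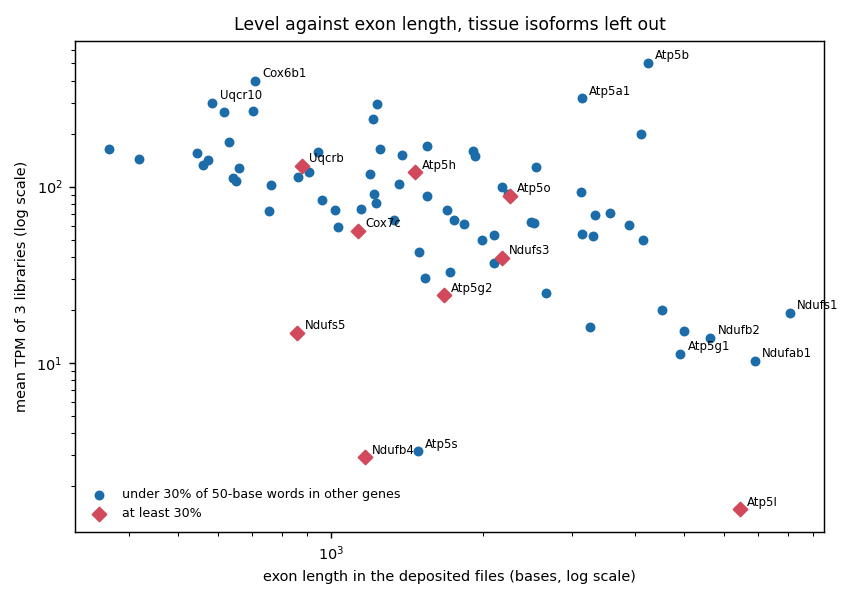
Mean TPM of 77 genes, leaving out the 8 tissue isoforms, against the exon length in the deposited files, both axes log, with diamonds for the 9 genes that share at least 30% of their 50-base stretches with other genes. Longer genes tend to be lower, with a wide scatter: Atp5b and Atp5a1 are long and high, and Ndufb4, Ndufs5 and Atp5s are short and low.

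Respiratory chain genes have many near-identical copies in the genome, and the recorded counting command has no option that would count reads mapping to several places. Of the 86 genes, 38 shared a 50-base stretch of the main transcript with a transcript of another gene, and 48 had none. The same share was not computed for other coding genes, so these counts do not set the respiratory chain genes apart from them. Some stretches lie in many genes, as for Atp5g1, which shared stretches with 366 other genes. In 9 genes this held for at least 30% of the stretches: Atp5g2 (87.4%), Atp5l (68.5%), Cox7c (53.0%), Atp5h (47.9%), Uqcrb (43.2%), Ndufb4 (37.0%), Ndufs3 (35.8%), Atp5o (35.5%) and Ndufs5 (31.1%). Their median was 39.5 TPM, beside 87.9 TPM for the 69 other genes that are not tissue isoforms. Across the 78 genes, rho between mean TPM and this share was -0.09. The levels of these 9 genes are uncertain, and whether shared stretches lowered them was not tested. The 11 annotated processed pseudogenes whose names start like the genes studied had at most 3 counts in a library. In addition 4 genes, Atp5o, Ndufb8, Atp5g2 and Ndufb2, share 287, 134, 75 and 145 exon bases with a gene on the same strand.

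The 24 overlapped genes faced 28 partners on the other strand, 19 of them protein-coding, with 4 to 616 shared exon bases per pair. In 16 of the 28 pairs the partner had more counts than the respiratory chain gene in 3 of 3 libraries, and in 8 pairs the respiratory chain gene did. Such counts were not made over all facing pairs in the data, so they are not read as a trait of the respiratory chain genes. Uqcrc2 (chromosome 7 from 120635176 to 120659524, plus strand) had 682, 63 and 363 counts, and Pdzd9, with which it shares 504 exon bases, had 2511, 167 and 3304. Ndufb6 had 145, 18 and 87 counts and Smim27, which shares 257 bases with it, had 1307, 182 and 2494. Cox5a had 268, 17 and 152 counts against 4172, 431 and 6629 for the noncoding Gm26631. In these pairs the partner was higher in replicate 3 than in replicate 1 while the respiratory chain gene was lower.

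The same held in other pairs. Cox4i1 had 870, 22 and 423 counts and Emc8 1921, 89 and 3204, Ndufb5 had 292, 2 and 144 and Mrpl47, which encodes a mitochondrial ribosomal protein, 2402, 153 and 3263, and Ndufa9 had 300, 3 and 133 against 1205, 78 and 1797 for the antisense gene 1700018A23Rik. Of the 28 partners, 17 had more counts in replicate 3 than in replicate 1, among them 13 of the 16 that exceeded the facing gene in every library. Of the 24 respiratory chain genes, 2 did, Atp5f1 and Ndufa4l2. The shares over all facing pairs were not computed here either. Atp5f1 was an exception in both respects, with 1749, 93 and 1814 counts against 161, 9 and 87 for Wdr77.

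**Figure D4:**
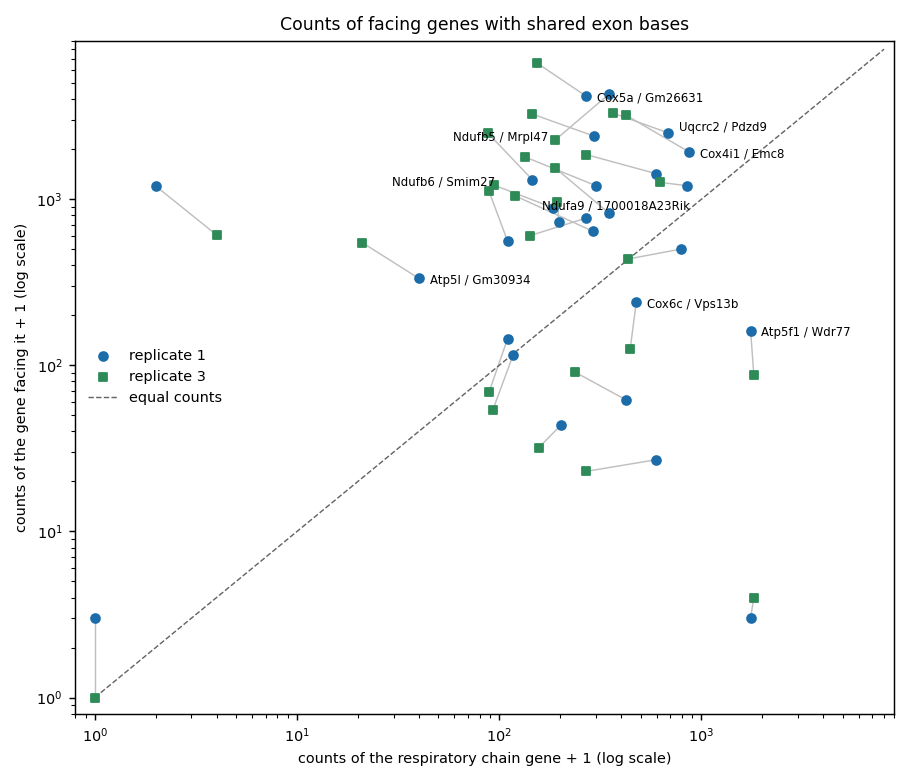
Counts + 1 of 23 overlapped respiratory chain genes (horizontal, log) against those of the genes facing them (vertical, log) in replicates 1 and 3, with a line joining the libraries of a pair and a dashed line of equal counts. Most pairs lie above the dashed line and move up and to the left from replicate 1 to replicate 3, while Atp5f1 and Wdr77 lie below it.

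Levels in replicate 3 were lower than in replicate 1 for nearly all the respiratory chain genes. Of the 77 with at least 10 counts in both, 75 were lower, and the exceptions were Ndufs3 (log2 0.02) and Atp5f1 (log2 0.09), both overlapped. The median log2 ratio was -0.85. Coding genes in general were lower too, with a median of -0.71 over 9929 genes and 86.1% of them lower. Among coding genes with no overlap the median was -0.77 and 6291 of 6623 were lower, and among overlapped coding genes it was -0.47. The lowest ratios were those of Sdhc (-1.49), Ndufb7 (-1.35), Atp5g2 (-1.30) and Ndufa5 (-1.27). When TPM was scaled over genes with no overlap alone, the median of the 55 such respiratory chain genes was -0.21, with 49 lower, beside -0.12 over 6623 coding genes. The share of counts on overlapped genes moved with this difference, and its part in the result was not tested.

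**Figure D5:**
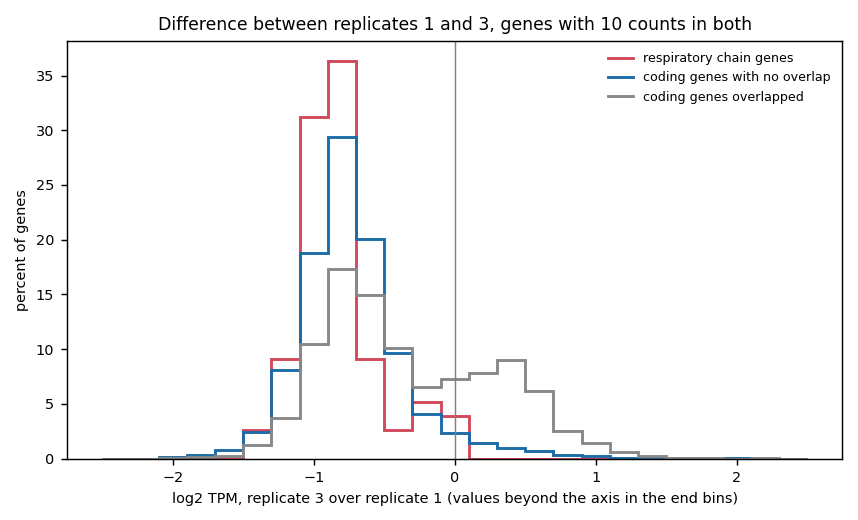
Distribution of the log2 ratio of TPM in replicate 3 over replicate 1, as percent of genes per bin, for the respiratory chain genes, coding genes with no overlap and overlapped coding genes, each with at least 10 counts in both libraries. The respiratory chain genes and the coding genes with no overlap peak together to the left of 0, with medians of -0.85 and -0.77, and the overlapped coding genes have a further hump to the right of 0.

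Variation between the libraries beyond counting error was tested for each of 11595 genes with a mean count of at least 10, by a chi-square test on counts with Benjamini-Hochberg adjustment. A gene was called at an adjusted p under 0.05 and a ratio of at least 2 between the highest and the lowest library. Of the 86 genes 77 were tested, and 19 of these were called (24.7%), beside 32.2% of all genes. The 9 genes left out by the filter were the 7 isoforms with few counts named above, Ndufb4 and Atp5s. Of the 77 tested, 8 were called with replicate 1 as the highest library, 10 with replicate 2 and 1 with replicate 3, beside 7.59%, 10.5% and 14.1% of the 11595 genes in the same order. Of the overlapped genes 8 of 22 were called, beside 43.3% of all overlapped genes, and of those with no overlap 11 of 55, beside 24.7%. In this fit the respiratory chain genes were thus not called more often than other genes, but this depended on the fit. Without replicate 3, 16 of 78 were called (20.5%), beside 11.8% of all genes. Without replicate 1 it was 13 of 77 (16.9%), beside 18%. Fitted on genes with no overlap alone, 11 of 55 were called (20%), beside 17.3%.

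The largest ratios rested on the shallow library. Cox8a had 328, 3 and 150 counts, or 288, 42.6 and 135 TPM, a scaled ratio of 6.61 with an adjusted p of 8.4e-07. Cox6b2 had a ratio of 6.20 (adjusted p of 5.9e-06) and was highest in replicate 2. Ndufa9 had 300, 3 and 133 counts, with a ratio of 6.05, and Ndufb5 had a ratio of 5.88. Ndufa4 went the other way with 330, 49 and 182 counts, or 114, 275 and 64.7 TPM, a ratio of 3.13 and an adjusted p of 1.3e-11. Cox8a, Ndufa9 and Ndufb5 were low in replicate 2, and Ndufa4 and Cox6b2 were high there. Without replicate 2, 0 of 79 genes were called, beside 14.9% of all genes, although 43 had an unadjusted p under 0.05 and 35 an adjusted one, since no ratio reached 2.

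The other genes of the system gave a lower or a mixed picture. Of 47 assembly factors, the proteins that build the complexes without staying in them, 44 reached 1 TPM, with a median of 13.4 TPM. The highest were overlapped, Cox20 at 866 ± 247 TPM, Sco2, which delivers copper to complex IV, at 152 ± 31.0 and Surf1 at 143 ± 25.8. Uqcc2, which helps complex III to form and is not overlapped, had 106 ± 38.4. Pet117 had 0 counts. Cycs, the mobile carrier cytochrome c, had 125, 166 and 58.7 TPM (117 ± 54.1) from 890, 73 and 407 counts. Of the 14 genes for electron carriers and coenzyme Q synthesis 13 reached 1 TPM, with a median of 7.74 TPM.

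The subunits encoded by the mitochondrial genome had a median of 975 TPM over 13 genes. The highest was mt-Nd6 with 18316, 1673 and 13631 counts (18241 ± 6140 TPM), the subunit gene that is encoded on the other mitochondrial strand than the rest. Next were mt-Co1 at 2550 ± 875 TPM and mt-Nd5, which faces mt-Nd6, at 2416 ± 868. Of the 13 genes 5, mt-Co2, mt-Co3, mt-Atp6, mt-Atp8 and mt-Nd4l, had 0 counts in each library, and mt-Nd3 had 0, 0 and 3. The level of mt-Nd6 was above that of every nuclear subunit in each library. The level of mt-Nd6 bears on how far the counted strand can be read as the strand of the RNA, which was not tested here. The genes at 0 counts lie on the same strand as mt-Nd1, mt-Nd2 and mt-Cytb, which had 4740, 3999 and 5220 counts in replicate 1. Why they had 0 counts was not tested.

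Of 13 regulators of respiratory genes, 11 reached 1 TPM, with a median of 12.0 TPM. Gabpa, a subunit of the factor GABP, had 91.0 ± 24.9 TPM, but it is overlapped and faces Atp5j, with which it shares 397 exon bases. Yy1 had 88.0, 50.7 and 56.9 TPM, Tfam, which packs and transcribes mitochondrial DNA, 21.9 ± 9.44, and Nrf1 5.42 ± 5.11 from 218, 0 and 128 counts. The coactivator Ppargc1a, known from brown fat and muscle, had 0 counts in each library, and Ppargc1b had 0.85 ± 0.74 TPM.

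The promoters of the genes were searched for letters bound by 3 of these factors, on both strands, from 250 bases before to 50 bases after each start given by RefSeq (GRCm38.p6). A promoter was found for 69 of the 86 genes. The NRF1 letters GCGCATG occurred in 13 of them (18.8%, beside 5.40% of 17492 coding genes), the YY1 letters AAGATGG in 11 (15.9%, beside 7.18%) and the GABP letters CCGGAAG in 16 (23.2%, beside 12.9%). At least 1 of the motifs occurred in 32 genes. The stretches below show a match in capitals with 10 bases on either side. They are the 5 genes where the NRF1 letters occur on both strands, 3 bases apart and overlapping, and YY1 and GABP matches in genes described above, so that the surroundings can be compared. They run 5′ to 3′ on the strand of the gene, where a GABP match may read as the reverse complement.
Atp5g2 (NRF1, chr15:102671073-102671099, minus strand): ggctccggccGCGCATGcgcagagcct
Atp5k (NRF1, chr5:108434433-108434459, minus strand): tttcactgcgGCGCATGcgcctttctg
Cox6a1 (NRF1, chr5:115349104-115349130, minus strand): caggaacgggGCGCATGcgcgctctcg
Ndufa11 (NRF1, chr17:56717692-56717718, plus strand): cctgcactgcGCGCATGcgcgcacgcc
Uqcrc1 (NRF1, chr9:108936668-108936694, plus strand): actccgctctGCGCATGcgcagcgcgg
Atp5j (YY1, chr16:84835048-84835074, minus strand): aagtgtaggaAAGATGGcggagtctta
Ndufs6 (YY1, chr13:73328433-73328459, minus strand): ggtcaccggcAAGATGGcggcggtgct
Atp5j (GABP, chr16:84835021-84835047, minus strand): gctgagggacCCGGAAGcacttaccct
Cox6b1 (GABP, chr7:30626126-30626152, minus strand): cctctcgcagCTTCCGGccagtcggaa
Uqcrh (GABP, chr4:116075064-116075090, minus strand): gtatgccgcaCTTCCGGccaggtcgcc
Sdhd (GABP, chr9:50603879-50603905, minus strand): cgtctcctgcCTTCCGGttcacgcttc

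With the first transcribed base counted as 1 and the base before it as -1, the first base in capitals lies at -42 in Atp5g2, -50 in Atp5k, -162 in Cox6a1, -60 in Ndufa11 and 31 in Uqcrc1. For YY1 it lies at -88 in Atp5j and at 34 in Ndufs6, and for GABP from -61 in Atp5j to -10 in Uqcrh. A match is a description of letters, not a site shown to be bound. The genes with an NRF1 match spanned 1.47 to 267 TPM with a median of 90.2, beside 70.8 for the 56 without. Those with a GABP match had a median of 102 TPM, from 1.47 for Atp5l to 398 for Cox6b1, beside 63.0 TPM for the 53 without, which reach from 0 to 503 TPM. The 11 genes with a YY1 match had a median of 53.9 TPM, from 30.4 for Ndufs4 to 199 for Atp5f1, beside 77.4 for the 58 without. The ranges with and without a match overlapped for each motif.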

How the data were processed

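The values used were raw fragment counts per gene, deposited as 1 file per library. Per the file headers they came from featureCounts 1.4.6-p4, run on exons of GENCODE mouse release 13 with strand setting 1, keeping pairs with both ends mapped, and the labels give mm10. Total RNA is the assay in the labels, but polyadenylated RNA is in the name of the protocol they link. An aligner version is not given in the sources used here. Names and gene types came from GENCODE mouse release 21, which matched 50376 of 50600 genes.

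TPM was computed from the deposited counts and exon lengths. A gene was overlapped where it shared exon bases with an opposite-strand gene (8189 genes). The main transcript was the GENCODE principal transcript, used for 50-base stretches and for an alternative length chosen after seeing the data. Variation between libraries was tested with a chi-square test on counts with TMM sizes (edgeR 4.0.16, R 4.3.3), a floor of 3 counts and Benjamini-Hochberg adjustment over all genes tested. It holds counting error only. A quasi-likelihood test needs 2 groups. The chi-square test was also run on simulated data with Poisson error alone, 11595 genes and changes put in replicate 3, a deep library. It recovered 100 of 100 genes changed 4-fold and 69 of 100 changed 2-fold, with 13 false calls. Changes in the shallow replicate 2 were not simulated, so these numbers do not give the recovery there. Alternatives were DESeq2 1.42.0 size factors, library totals, other count filters, a TPM minimum of 5, a pseudocount of 0.1 in place of 1 for log2 ratios, medians, genes with no overlap alone, shares of coding nuclear genes, and leaving out each replicate.

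The rule for named genes took every respiratory chain gene, every gene facing one, and lists of assembly factors, mitochondrial genome subunits, electron carriers, regulators, TCA enzymes and cell type markers. The genes and lists were chosen with earlier results of these data known. Single genes withheld from the text and figures are not reported here, and group values still include them.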

Additional observations from a re-analysis of the deposited data

How the results depend on the processing

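Of 58 recomputed main results 42 stayed within the replicate spread or 1.5 times the count, and 16 moved. The number of varying genes ranged from 0 to 16 when each replicate was left out in turn, with 0 without replicate 2. It was 11 of 55 on genes with no overlap alone, 12 of 57 with a count minimum of 100 and 55 with no minimum on the ratio, and 18 with DESeq2 size factors and 28 with library totals beside 19. On genes with no overlap alone, which leaves fewer genes in the total, the median level was 214 TPM and the shares of complexes I to V were 0.537%, 0.0731%, 0.306%, 0.430% and 0.524%. As shares of the coding nuclear genes they were 0.529%, 0.0488%, 0.255%, 0.347% and 0.458%. With the length of the main transcript complex V was at 0.370%, and Cox5a over Cox5b reversed to a log2 ratio of 0.15. Of 100 recomputed pair ratios 84 stayed within 1 SD, among them Ndufv1 over Ndufv2, whose sign turned to -0.40 without replicate 2. Another 15 moved without a change of sign, and the last is the reversal above. No paired analysis was possible because there was 1 group. The depth of replicate 2 limits every low gene.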
